A study of Bombus lucorum with 81 samples.

Results

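MICU3 (LOC100647076, described as calcium uptake protein 3, mitochondrial isoform X1) and calexcitin-2 (LOC100645836) are 2 of the 10581 genes counted in Bombus lucorum workers along an elevational gradient. They were chosen from the data. MICU3 was picked for its difference between lowland bees caught at high and at low air temperature, and calexcitin-2 for its difference between highland and mid-elevation bees. Those 2 differences are therefore given below as descriptions, with no test. Both genes passed the filter on low counts in every comparison, with 358 to 3409 counts per bee for MICU3 and 458 to 4918 for calexcitin-2.

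Mitochondria take up calcium through a uniporter in their inner membrane, and EF-hand proteins of the MICU family sense calcium on its outer side and gate it. In mammals, MICU3 is the family member best known from nerve tissue and muscle, where it makes uptake more sensitive to small calcium signals. Calexcitin is an EF-hand protein of invertebrates, first described in squid nerve cells, that binds calcium in the cytosol and acts on potassium channels and on calcium release from internal stores. In flight muscle, which also warms a bumblebee, calcium starts contraction and stimulates mitochondrial metabolism.

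Each of the 81 libraries was poly-A RNA of the thorax and abdomen of 1 free-flying worker of unknown colony, caught in summer in the Berchtesgaden Alps, after head, legs, wings and gut had been taken off. The RNA integrity numbers given in the paper span a wide range, and they were not used in the fits. The bees came from 6 lowland sites at 641 to 987 m (30 bees), 5 mid-elevation sites at 1140 to 1423 m (25 bees) and 5 highland sites at 1579 to 1930 m (26 bees). Livestock grazed 3 lowland sites, all 5 mid-elevation sites and 1 highland site, which gave 45 bees from grazed and 36 from ungrazed sites. The lowland bees were split by predicted air temperature at capture into 17 bees of the high class (20.6 to 23.5 °C, from 4 sites) and 13 of the low class (14.8 to 18.5 °C, from 3 sites), and only the ungrazed site T4 gave bees of both classes. Bees of 1 site may be sisters, and the p-values of the gene-wise fits treat every bee as independent.

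The counts on genes summed to between 15700759 and 33784279 per bee, with a median of 26082949. Although the gut had been taken off, some gut genes were high in part of the libraries. The summed level of 15 gut genes (peritrophins, chymotrypsins, trypsins and mucins) lay between 7.2 and 71400 CPM (counts scaled to a common library size), and it was above 1000 CPM, a line drawn after the values were seen, in 44 of the 81 bees. It was above that line in 10 of the 17 bees of the high class and in 2 of the 13 of the low class. The sum came almost wholly from the peritrophin-1 genes LOC100642795, LOC100642915 and LOC100643150 (means of 2762, 3889 and 6594 CPM) and chymotrypsin-1 (4691 CPM). Each other gene of the list averaged at most 11.4 CPM. Of the 12 gut genes tested between the classes, 7 had a log2 fold change above 0, high against low. Whether gut was left in these bees was not tested. The summed level of 14 muscle genes lay between 2120 and 45700 CPM, so that RNA of muscle genes was present in all libraries, at unequal levels. Whether the amount of muscle differed between bees was not tested. In whole bodies, a smaller amount of a tissue and less RNA of a gene per cell cannot be told apart.

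Both genes were expressed in every bee and at about the same level per length. MICU3 had 43.5 ± 19.4 CPM (SD, n = 81 bees), which is 21.2 CPM per kilobase of exon, and ran from 14.7 over a median of 41.2 to 119 CPM. Calexcitin-2 had 56.1 ± 40.0 CPM (SD, n = 81), or 21.9 CPM per kilobase, and ran from 20.2 over a median of 43.6 to 304 CPM. The ratio of the highest to the lowest bee was 8.11 for MICU3 and 15.1 for calexcitin-2, and the single highest bee held 3.39% of all CPM of MICU3 and 6.68% of those of calexcitin-2. MICU3 lies on the minus strand from 11616604 to 11641005 with 2048 bases of exon, and calexcitin-2 on the plus strand from 2055890 to 2100394 of another contig with 2567 bases, both in the Bombus terrestris assembly Bter_1.0. No other counted gene overlaps either of them.

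**Figure D1:**
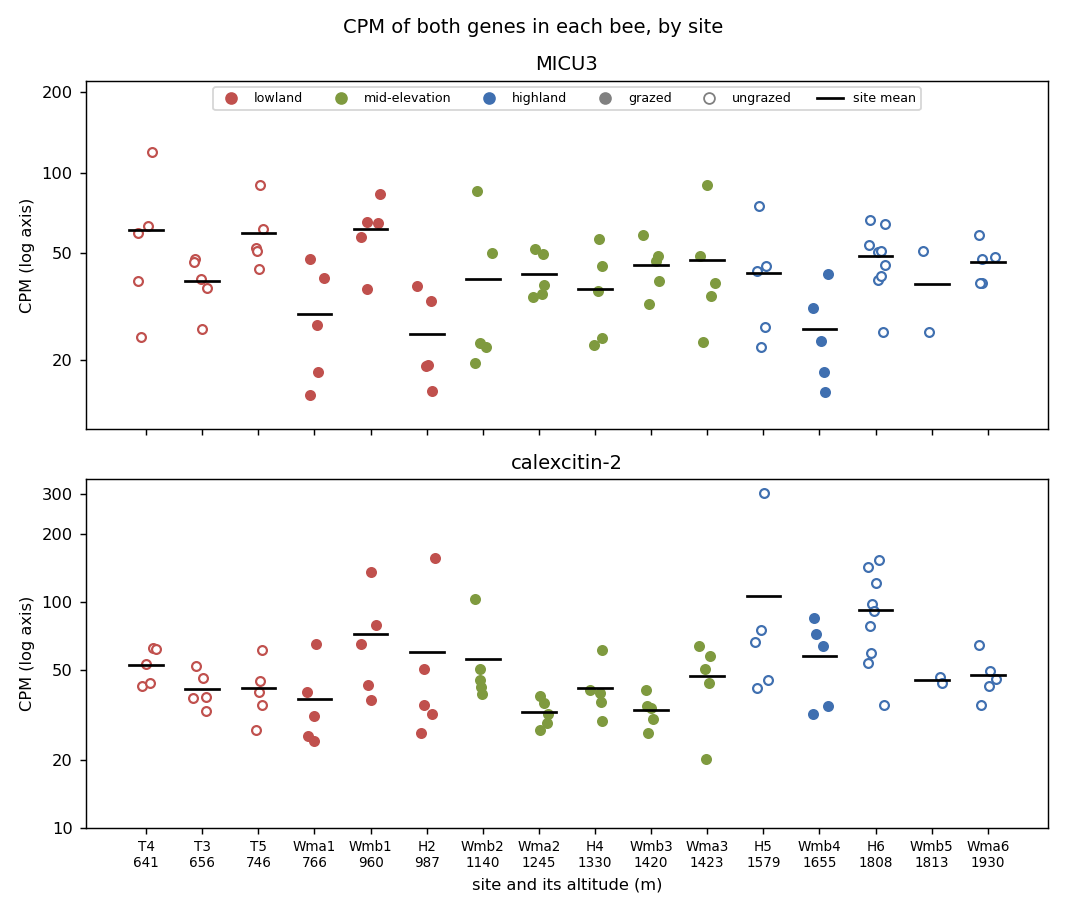
CPM of MICU3 (upper panel) and calexcitin-2 (lower panel) in each of the 81 bees on a log axis, by site in order of altitude, with a bar at the site mean. Colours mark the belts, and filled points grazed sites. MICU3 varied most among the lowland sites, where site means ran from 24.9 to 61.5 CPM, and calexcitin-2 had its highest bee, at 304 CPM, at the highland site H5.

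Site accounted for 37.2% of the variance of log2 CPM between bees for MICU3 and for 37.5% for calexcitin-2, where the median over 8948 genes was 27.2%. The belts accounted for 0.188% of that of MICU3 and for 17.3% of that of calexcitin-2. The genes were chosen for differences between temperature classes and between belts, which are largely groups of sites. The site shares of both genes and the belt share of calexcitin-2 are therefore not independent of that choice. In order of their mean, the sites of MICU3 began with the lowland sites Wmb1 (61.5 ± 16.7 CPM, SD, n = 5), T4 (61.0 ± 36.2, n = 5) and T5 (59.7 ± 18.1, n = 5), and ended with the lowland site Wma1 (29.6 ± 14.2, n = 5), the grazed highland site Wmb4 (26.0 ± 10.8, n = 5) and the lowland site H2 (24.9 ± 9.94, n = 5). The highest and the lowest site were thus both lowland sites, and both were grazed. Those of calexcitin-2 began with the highland sites H5 (106 ± 111 CPM, n = 5) and H6 (92.4 ± 40.6, n = 9), followed by the lowland site Wmb1 (71.8 ± 39.5, n = 5), and ended with the mid-elevation sites Wmb3 (33.1 ± 5.29, n = 5) and Wma2 (32.4 ± 4.58, n = 5). Among the 15 steps between neighbouring sites in these orders, the gap was larger than the larger SD of the pair in 0 for MICU3 and in 0 for calexcitin-2.

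MICU3 was lower in lowland bees caught at high air temperature than in those caught at low air temperature. This is the difference for which the gene was chosen. The 17 bees of the high class ran from 14.7 over a median of 33.3 to 47.7 CPM, with a mean of 31.4 ± 11.6 (SD). The 13 bees of the low class ran from 36.8 over a median of 61.5 to 119 CPM, with a mean of 65.2 ± 21.7. The classes overlapped between 36.8 and 47.7 CPM, with 9 bees of the high class below every bee of the low class and 11 bees of the low class above every bee of the high class. The fitted log2 fold change, high against low, was -1.08 ± 0.18 (SE), which is a fold of 0.474. In that comparison 4.06% of the 9305 genes tested were called, which means a log2 fold change beyond 0.5 in either direction with an adjusted p below 0.05.

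The same order was seen inside the site that held both classes and at both kinds of land use. These are parts of the same lowland bees from which MICU3 was chosen, so their agreement is a description and no separate evidence. At T4, the 2 bees caught at 20.6 °C had 24.2 and 39.2 CPM of MICU3, and the 3 bees caught at 17.3 °C had 59.4, 63.0 and 119 CPM. At grazed lowland sites, MICU3 had 27.2 ± 11.8 CPM in the high class (SD, n = 10 bees, 2 sites) and 61.5 ± 16.7 in the low class (n = 5, 1 site), and at ungrazed lowland sites 37.2 ± 9.10 (n = 7, 2 sites) and 67.5 ± 25.1 (n = 8, 2 sites). Averaged by site and class, the 4 units of the high class lay between 4.55 and 5.27 log2 CPM and the 3 units of the low class between 5.85 and 6.26, without overlap. How many other genes separate these units in the same way was not counted, so the lack of overlap is a description only.

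**Figure D2:**
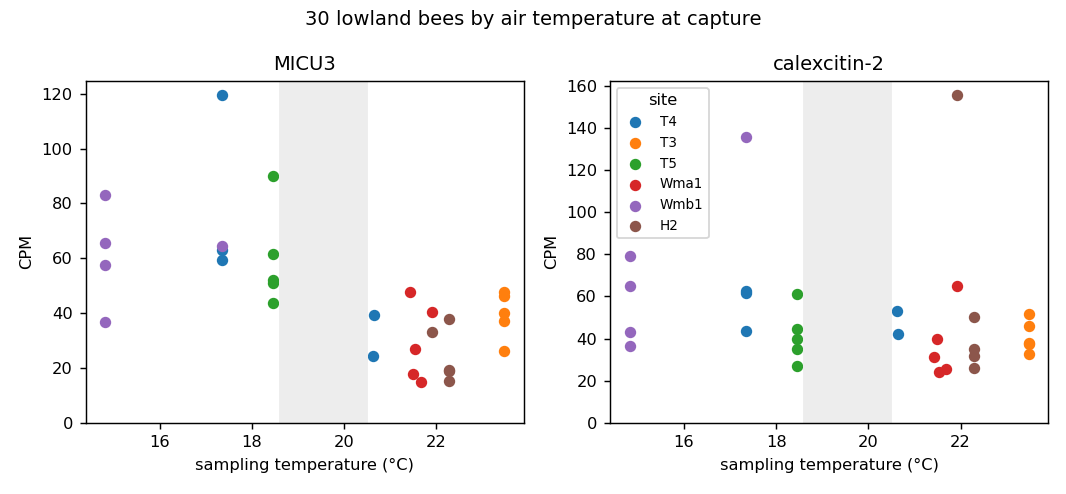
CPM of MICU3 (left) and calexcitin-2 (right) in the 30 lowland bees against the predicted air temperature at capture in °C, coloured by site, with the gap between the classes shaded grey. MICU3 reached at most 47.7 CPM above the gap and 119 CPM below it, while calexcitin-2 had single bees above 100 CPM on both sides.

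Within a class, the relation of MICU3 to temperature was weak. Across the 17 bees of the high class, Pearson's r of log2 CPM with temperature was 0.278 (Spearman's rho 0.231), and across the 13 bees of the low class it was 0.0438 (rho -0.16). These values are descriptions, since bees of 1 site often share 1 temperature value. The markers of tissues differed between the classes as well. The summed muscle genes had a median of 3450 CPM in the high class (2780 to 36100) and of 5170 CPM in the low class (3470 to 45700), and the summed gut genes of 16900 CPM (7.2 to 54000) and 13.3 CPM (8.05 to 42800). Of the 13 muscle genes tested between the classes, 1 had a log2 fold change above 0, high against low. Titin (LOC100643023) had the higher mean in the high class, 35.8 ± 29.4 against 14.9 ± 14.1 CPM (SD). The 3 fat body genes, vitellogenins and a hexamerin, summed to a median of 55.5 CPM in the high class (12.5 to 2760) and of 24 CPM in the low class (14.2 to 3290). These genes did not agree. Hexamerin and vitellogenin-like had higher means in the high class, while vitellogenin had a lower mean, 31.4 ± 72.9 against 48.9 ± 94.1 CPM (SD). No gene of these lists was at 0 in every bee of a class. With the muscle score of a bee as a covariate, the log2 fold change of MICU3 was -0.999 ± 0.188, and with the gut score it was -1.04 ± 0.20. Of the genes tested between the classes, 10 of the 13 muscle genes and 4 of the 12 gut genes were named only in the study's tables of genes regulated in these same bees. Neither score is therefore independent of these bees. The part of fat body in the difference was not tested.

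Across the belts, the levels of MICU3 overlapped and no difference was called. The 30 lowland bees ran from 14.7 over a median of 42.1 to 119 CPM with a mean of 46.0 ± 23.7 (SD), the 25 mid-elevation bees from 19.4 over 38.8 to 89.7 CPM with a mean of 42.2 ± 17.8, and the 26 highland bees from 15.2 over 42.4 to 74.9 CPM with a mean of 41.8 ± 15.4. The ranges overlapped, with 0 highland bees above every mid-elevation bee and 2 below. The highland and mid-elevation bees played no part in choosing the gene. Between them, the log2 fold change was -0.01 ± 0.18 (SE), with a 95% interval of -0.36 to 0.33 and an adjusted p of 0.981 in edgeR's quasi-likelihood test, where 0.211% of 9475 genes were called. The comparisons with the lowland share the lowland bees from which MICU3 was chosen. They gave -0.14 ± 0.17 for highland against lowland (interval -0.47 to 0.19, adjusted p = 0.715 in edgeR, 0.686% of genes called) and -0.12 ± 0.17 for mid-elevation against lowland (interval -0.46 to 0.21, adjusted p = 0.749 in edgeR, 0.369% called). The intervals do not reach the size of the difference between the temperature classes, but MICU3 was chosen for that difference. The lowland group also mixes 17 bees of the high class with 13 of the low class. The sizes can therefore not be weighed against each other. Over the 16 site means, r of MICU3 with altitude was -0.0944 (rho -0.129), as a description.

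All mid-elevation sites were grazed. The comparison of mid-elevation with lowland, within its error of 0 above, had the opposite sign in fits that took grazing into account. With grazing as a covariate it was 0.18 ± 0.18 (adjusted p = 0.585 in edgeR), and over grazed sites only it was 0.12 ± 0.21 (adjusted p = 0.825 in edgeR). With the same covariate, highland against mid-elevation was -0.51 ± 0.23, and that value was not called either (adjusted p = 0.192 in edgeR). The grazed highland site Wmb4 had a mean of 26.0 CPM, and the 4 ungrazed highland sites had 45.6 ± 13.9 CPM (SD, n = 21 bees).

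MICU3 had a mean of 39.2 ± 18.8 CPM at grazed sites (SD, n = 45 bees; 14.7 to 89.7, median 36.8) and of 48.8 ± 19.1 CPM at ungrazed sites (n = 36; 22.3 to 119, median 47.0). Of the 45 bees of grazed sites, 8 lay below every bee of ungrazed sites. The log2 fold change was -0.32 ± 0.14 (SE), with an unadjusted p of 0.0229 and an adjusted p of 0.310 in edgeR, so that it was not called, and 0.181% of 9385 genes were. This comparison and the one within the lowland include the lowland bees from which MICU3 was chosen. With belt as a covariate it was -0.58 ± 0.18, with an adjusted p of 0.0826 in edgeR. Among the lowland bees alone, grazed sites had 38.7 ± 21.2 CPM (SD, n = 15) and ungrazed sites 53.4 ± 24.4 (n = 15), with a log2 fold change of -0.44 ± 0.25 and an adjusted p of 0.433 in edgeR. Of the 9273 genes tested there, 0 were called (0%) and 1284 had an unadjusted p under 0.05, while DESeq2 without a fold-change prior called 83 higher and 38 lower. The lowland value depended on single sites, and without H2 it was -0.20. Without the cool, grazed site Wmb1 the log2 fold change was -0.98 ± 0.25 and the adjusted p in edgeR was 0.0476. All grazed lowland bees left in that fit were of the high class, so it partly repeats the difference by which MICU3 was chosen. The fat body genes differed by grazing as well, with a median sum of 56.3 CPM at grazed and 21.4 CPM at ungrazed sites, and in the lowland of 288 CPM (16 to 3290) and 20.9 CPM (12.5 to 601). Their part in the values of MICU3 was not tested. Grazing and temperature class were unevenly combined in the lowland, with 10 of 15 grazed and 7 of 15 ungrazed bees in the high class, and with the class as a covariate the value was -0.29 ± 0.18 (adjusted p = 0.461 in edgeR).

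Calexcitin-2 was higher in highland than in mid-elevation bees, which is the difference for which it was chosen. The 26 highland bees ran from 31.9 over a median of 61.3 to 304 CPM, with a mean of 76.0 ± 56.6 (SD), and the 25 mid-elevation bees from 20.2 over a median of 39.2 to 103 CPM, with a mean of 42.0 ± 16.7. Of the highland bees, 22 were above the mid-elevation median, and 4 were above every mid-elevation bee. The fitted log2 fold change was 0.86 ± 0.19 (SE), a fold of 1.81. Without the bee with the highest level it was 0.67 ± 0.18, and without site H6 it was 0.68. The highland belt itself was uneven. H5 and H6 had site means of 106 and 92.4 CPM, whereas the highest site, Wma6, had 47.3 ± 10.9 CPM (n = 5) and Wmb5 had 43.8 and 46.5 CPM in its 2 bees. Without H6, the median of the remaining 17 highland bees was 46.5 CPM.

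Between highland and lowland, calexcitin-2 stood at 76.0 ± 56.6 CPM against 50.7 ± 29.3 CPM (SD, n = 26 and 30), and the lowland bees ran from 24.2 over a median of 42.6 to 156 CPM. The groups overlapped, with 20 of 26 highland bees above the lowland median. The log2 fold change was 0.59 ± 0.18 (SE), with an unadjusted p of 0.00198 and an adjusted p of 0.0742 in edgeR, so that it was not called. This comparison shares the highland bees with the one from which the gene was chosen. It depended on single sites, being called when Wmb1, Wmb4, Wmb5 or Wma6 was left out, with the smallest adjusted p of 0.0185 in edgeR without Wmb1, while without H6 the log2 fold change was 0.41 and the adjusted p 0.475. Without the highest bee it was 0.39 ± 0.17 (adjusted p = 0.201 in edgeR). At grazed sites only, with 5 highland bees of 1 site, it was 0.04 ± 0.34, and at ungrazed sites only it was 0.84 ± 0.24, with an adjusted p of 0.0621 in edgeR. Mid-elevation against lowland, which shares the mid-elevation bees with the choosing comparison, gave -0.27 ± 0.19 (interval -0.63 to 0.10, adjusted p = 0.475 in edgeR).

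The 4 bees with the largest muscle sums were all among the 7 bees with the highest calexcitin-2. Bee 4 of H5 had 304 CPM and the 4th highest muscle sum of the 81 bees, at 16200 CPM. Bee 5 of H2 had 156 CPM and the 2nd highest muscle sum (36100 CPM), bee 5 of Wmb1 had 136 CPM and the highest muscle sum (45700 CPM), and bee 5 of Wmb2 had 103 CPM and the 3rd highest muscle sum (22000 CPM). The nearest bee of the same site had 74.9 CPM at H5, 50.2 CPM at H2 and 50.3 CPM at Wmb2. The cut at 4 bees was not planned beforehand. The bees ranked 5th to 8th in muscle sum had 79.0, 153, 46.5 and 42.9 CPM of calexcitin-2, beside a median of 43.6 CPM over all bees. At H6 the picture was broader, with bee 9 at 153 CPM ranking 6th in muscle sum, but bee 5 at 122 CPM ranking 29th and bee 8 at 91.0 CPM ranking 54th.

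**Figure D3:**
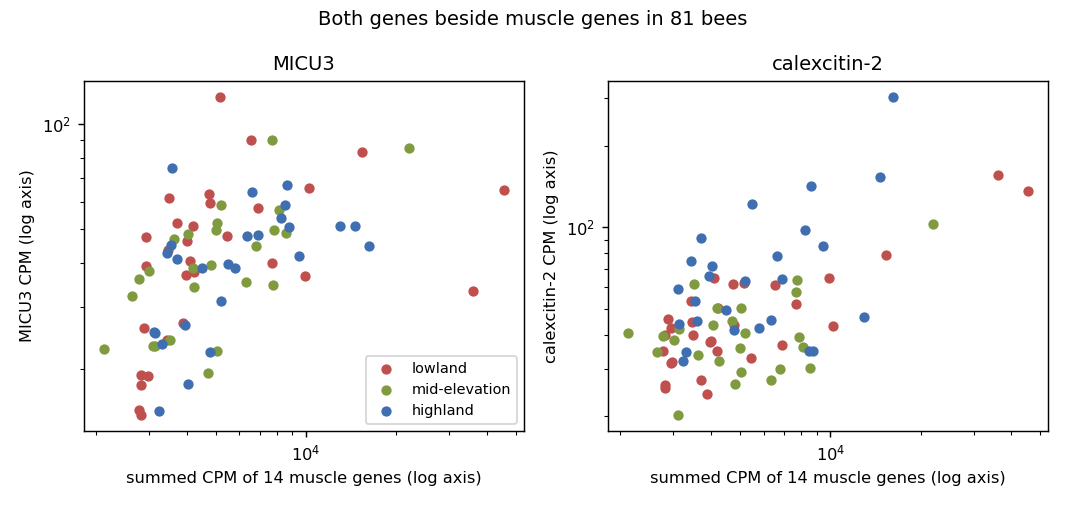
CPM of MICU3 (left) and calexcitin-2 (right) against the summed CPM of 14 muscle genes in each of the 81 bees, both on log axes and coloured by belt. The 4 bees with the largest muscle sums, 16200 to 45700 CPM, had 103 to 304 CPM of calexcitin-2 and 33.3 to 85.5 CPM of MICU3.

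Over all 81 bees, r of log2 CPM with the muscle score, the mean centred log2 CPM of these genes, was 0.615 for calexcitin-2 (rho 0.474) and 0.481 for MICU3 (rho 0.555). In the 30 lowland bees it was 0.84 for calexcitin-2 (rho 0.654). The only muscle genes with a negative r with MICU3 were titin (LOC100643023), at -0.172, and a rare titin homolog (LOC100644579), at -0.425. Of the 13 muscle genes tested between the belts, which make up the score, 10 were named only in the study's tables of genes regulated in these same bees. The score is therefore not independent of the differences in these bees, also where it serves as a covariate here and below. With the 3 muscle genes that were named whatever their values, r over all bees was 0.558 for calexcitin-2 and 0.482 for MICU3. The points share libraries, and the CPM of a bee depend on each other. MICU3 had r = -0.648 (rho -0.493) with the fat body score and calexcitin-2 -0.121 (rho -0.0694). The genes of that score disagreed. With MICU3, r was -0.702 for hexamerin and -0.635 for vitellogenin-like, but 0.456 for vitellogenin. With calexcitin-2 these values were -0.261, -0.166 and 0.625. Calexcitin-2 also had r = -0.445 (rho -0.261) with the log2 counts of the library, where MICU3 had 0.0144. The median counts per bee were 24837758 in the lowland, 27732166 at mid-elevation, where calexcitin-2 was lowest, and 25014898 in the highland. The part of depth in the belt differences of calexcitin-2 was not tested. With the muscle score as a covariate, the log2 fold change of calexcitin-2 between highland and mid-elevation was 0.67 ± 0.14 and between highland and lowland 0.50 ± 0.14. The second had an adjusted p of 0.0350 in edgeR and a size just under the threshold.

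Between the temperature classes, calexcitin-2 overlapped widely and was not called. The 17 bees of the high class ran from 24.2 over a median of 37.9 to 156 CPM (mean 46.2 ± 30.3, SD) and the 13 bees of the low class from 27.2 over 44.8 to 136 CPM (mean 56.49 ± 28.01). These bees played no part in choosing the gene. The log2 fold change was -0.31 ± 0.25 (SE), with an interval of -0.79 to 0.17 and an adjusted p of 0.441 in edgeR. The value depended on bee 5 of H2, the highest of these bees. Without it, the log2 fold change was -0.54 ± 0.19 and was called, with an adjusted p of 0.0458 in edgeR, and with the muscle score as a covariate and all 30 bees it was 0.01 ± 0.14 (adjusted p = 0.970 in edgeR). At T4, the 2 warmer bees had 42.2 and 53.2 CPM and the 3 cooler bees 43.5, 61.7 and 62.4 CPM.

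At grazed sites calexcitin-2 had 48.5 ± 27.6 CPM (SD, n = 45; 20.2 to 156, median 39.5) and at ungrazed sites 65.7 ± 50.3 CPM (n = 36; 27.2 to 304, median 48.0). The log2 fold change was -0.44 ± 0.16 (SE), with an unadjusted p of 0.00876 and an adjusted p of 0.218 in edgeR, and was not called. It is not independent of the choice of the gene, since all 25 mid-elevation bees came from grazed sites and 21 of the 26 highland bees from ungrazed sites. With belt as a covariate the log2 fold change was 0.06 ± 0.21 (adjusted p = 0.915 in edgeR), so that the sign turned. In the lowland alone, grazed sites had 56.2 ± 39.9 CPM (n = 15) and ungrazed sites 45.1 ± 10.9 (n = 15), with a log2 fold change of 0.34 ± 0.24 (adjusted p = 0.533 in edgeR) that became -0.15 ± 0.13 with the muscle score as a covariate. The effect of grazing in the highland minus that in the lowland, a test added after the values were seen, was -0.80 ± 0.47 on the log2 scale for calexcitin-2 (adjusted p = 0.576 in edgeR) and -0.35 ± 0.38 for MICU3 (adjusted p = 0.796 in edgeR). It too includes bees from which each gene was chosen.

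**Figure D4:**
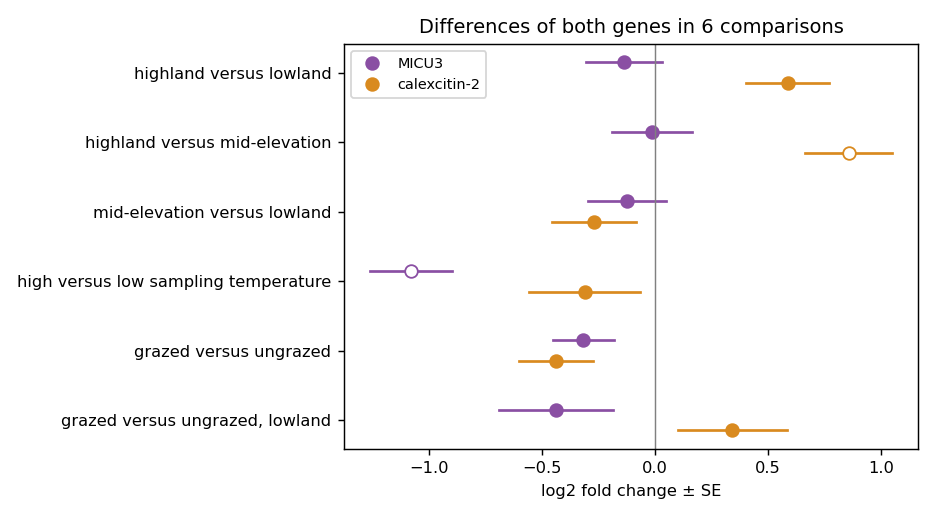
Fitted log2 fold changes with their standard errors for MICU3 and calexcitin-2 in 6 comparisons. Open points mark the 2 comparisons for which the genes were chosen, -1.08 for MICU3 between temperature classes and 0.86 for calexcitin-2 between highland and mid-elevation, and none of the filled points was called.

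With sites in place of bees as the units, no difference of either gene passed, but some of the tests had too few sites to pass at all. Exact two-sided permutation tests of site means of log2 CPM were run for the 10 comparisons other than the 2 by which the genes were chosen. Only MICU3 between highland and mid-elevation and calexcitin-2 between temperature classes and by lowland grazing used none of the bees of the choosing comparison, and the other 7 share bees with it. The smallest adjusted p was 0.557, shared by MICU3 between 9 grazed and 7 ungrazed sites (difference -0.345, exact p = 0.0911), calexcitin-2 between the same sites (-0.286, exact p = 0.167) and calexcitin-2 between 5 highland and 6 lowland sites (0.38, exact p = 0.13). For 3 grazed against 3 ungrazed lowland sites the smallest p that the exact test allows is 0.1, and for 4 warm against 3 cool units it is 0.0571. Those units are sites split by class, so T4 gave a unit to each group, and the test took them as independent.

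The genes for calcium handling around them were found by description. Together with MICU3 and calexcitin-2, 19 others were matched. Of these, 8 had names whatever their values and 11 had names only from tables of genes regulated in these same bees. The direction of the latter is not independent evidence, since those tables were chosen on these samples. Between temperature classes, 3 of the 19 were called higher and 4 lower at high temperature, of which 1 and 0 were among the 8. With site as a random block in limma, 0 of the 19 were called in either direction, and the calls named below are those of the fit that takes bees as independent. Over all genes 3.1% were called higher and 0.967% lower. The median log2 fold change of the 19 was 0.0219, beside -0.00281 over all genes. In mid-elevation against lowland, where 0.116% of all genes were called higher and 0.253% lower, 1 of the 19 was called lower, sodium/calcium exchanger 1 (LOC100650276), which carries calcium out of the cell in exchange for sodium, at -1.20 ± 0.30 (SE; adjusted p = 0.0432 in edgeR). It is a rare transcript, at 3.40 ± 5.20 CPM in the lowland (SD, n = 30) and 1.47 ± 0.85 CPM at mid-elevation (n = 25), and a single bee held 16.4% of all its CPM. Of the 19 genes, 1 was called lower without T3, Wmb1 or Wmb2, and 0 when any of the other lowland or mid-elevation sites was left out. The call was also lost in limma with a site block, with counts summed per site, with the gut or the length covariate, with bee number as a block and at grazed sites only. In both comparisons with the highland and in both by grazing, 0 of the 19 were called. There, 0.179% of all genes were called higher and 0.507% lower in highland against lowland, 0.106% and 0.106% in highland against mid-elevation, and 0.0426% and 0.139% by grazing.

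Among mitochondrial calcium genes, LETM1 and EF-hand domain-containing protein anon-60Da (LOC100644472), an inner membrane protein of ion exchange, was the other one matched by name. It had 120 ± 19.6 CPM in the high class (SD, n = 17) and 115 ± 18.2 CPM in the low class (n = 13), with a log2 fold change of 0.04 ± 0.10 (adjusted p = 0.807 in edgeR). Its r with MICU3 over the 81 bees was -0.264. The cytosolic sensors went in both directions. Calmodulin (LOC100649704), the general calcium sensor of the cell and the most abundant of the lists per length at 176 CPM per kilobase, rose to 769 ± 209 CPM in the high class from 499 ± 126 CPM in the low class (log2 fold change 0.61 ± 0.14, adjusted p = 0.0193 in edgeR). EF-hand domain-containing protein D2 homolog (LOC100649474), known in mammals as an actin-binding calcium sensor, rose as well (1.03 ± 0.27, adjusted p = 0.0277 in edgeR). Calmodulin-beta (LOC100647159) fell from 117 ± 55.2 CPM in the low class to 55.8 ± 43.4 CPM in the high class (-1.10 ± 0.32, adjusted p = 0.0420 in edgeR). Sarcoplasmic calcium-binding protein 1 (LOC100651217), a calcium buffer of invertebrate muscle, had -0.93 ± 0.47 and was not called (adjusted p = 0.214 in edgeR).

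Both called channel genes code for accessory subunits of voltage-gated calcium channels and fell at high temperature. The subunit alpha-2/delta-3 (LOC100647110) had -1.17 ± 0.27 (adjusted p = 0.0171 in edgeR) and the L-type subunit beta-1 (LOC100645652) -0.98 ± 0.24 (adjusted p = 0.0235 in edgeR). The pore-forming muscle calcium channel subunit alpha-1 (LOC100649439) stood at 49.6 ± 14.7 CPM in the high class and 48.5 ± 17.9 CPM in the low class. Calcium release-activated calcium channel protein 1 (LOC100646865), the pore through which emptied stores are refilled, had 0.63 ± 0.20 and was just outside the threshold (adjusted p = 0.0538 in edgeR). Of the exchangers that carry calcium out of the cell, sodium/potassium/calcium exchanger 4 (LOC100646052) rose, with 44.2 ± 48.6 CPM in the high class against 5.10 ± 13.4 CPM in the low class (3.10 ± 0.96, adjusted p = 0.0495 in edgeR), and sodium/potassium/calcium exchanger 3-like (LOC100646614) had 2.30 ± 0.85 (adjusted p = 0.0903 in edgeR). Calcium-dependent protein kinase 16 (LOC100649174), described as a kinase switched on by calcium, fell by 0.77 ± 0.24 on the log2 scale (adjusted p = 0.0492 in edgeR). With the gut score as a covariate 0 of the 19 were called higher and 1 lower. These counts depended on single sites. Without T4 0 were called in either direction, without T5 1 higher and 0 lower, without Wma1 3 and 1, without Wmb1 4 and 2, and without H2 3 and 6, while T3 left 2 and 3.

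**Figure D5:**
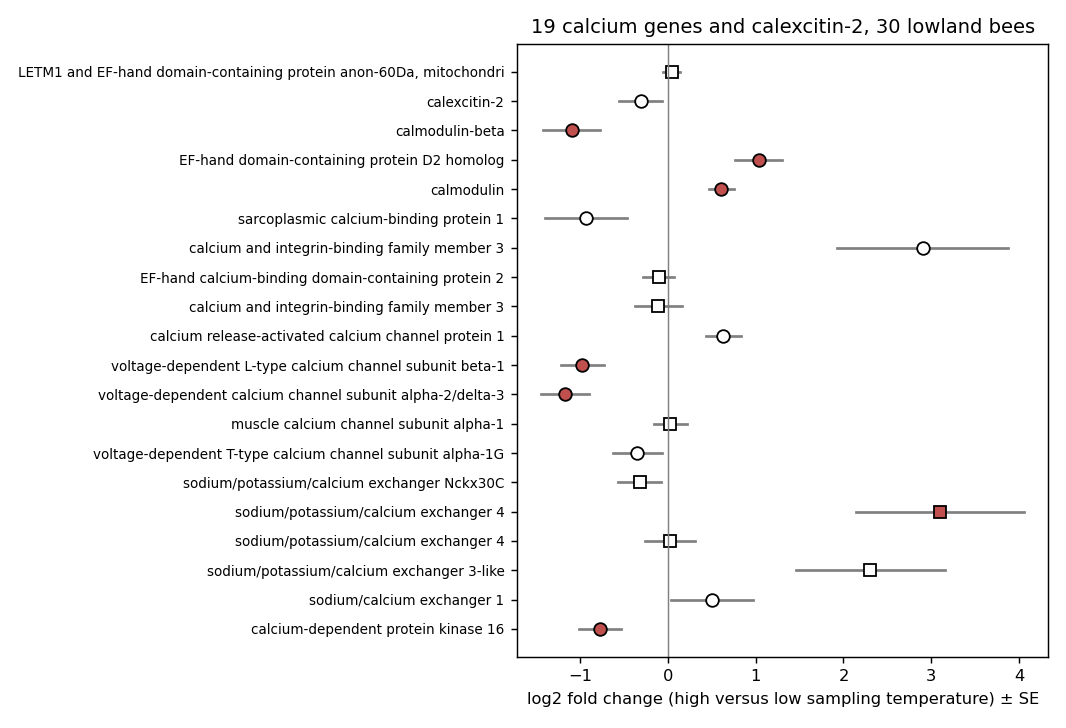
Log2 fold changes with standard errors, high against low sampling temperature, of the 19 calcium genes and calexcitin-2 in the 30 lowland bees. Red points were called, circles are genes named in the study's tables of regulated genes (calexcitin-2 included) and squares genes named whatever their values. The called genes ran from -1.17 for the channel subunit alpha-2/delta-3 to 3.10 for sodium/potassium/calcium exchanger 4.

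The 2 genes were weakly related across bees. Over the 81 bees, r of their log2 CPM was 0.283 (rho 0.232), and 0.329 (rho 0.313) after the site means had been subtracted, while over the 16 site means it was 0.162. Of the calcium genes, calmodulin-beta was the most like MICU3, with r = 0.743, and the D2 homolog the most unlike, with r = -0.697. Calexcitin-2 had its highest value among them, r = 0.621, with calcium and integrin-binding family member 3 (LOC105665806, named here after its value was seen), and its lowest, r = -0.455, with the LETM1 gene.

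Among 8938 genes of at least 1 CPM on average, the 5 most like MICU3 over the 81 bees had r between 0.761 and 0.776. They were coiled-coil domain-containing protein 43 (LOC100644251), the homeobox protein aristaless (LOC100646892), known in Drosophila as a transcription factor of the appendages, the beta chain of methylcrotonoyl-CoA carboxylase (LOC100646006), a mitochondrial enzyme of leucine breakdown, leucine-rich repeat-containing protein 58 (LOC100643003) and farnesol dehydrogenase (LOC100650886). Their r within sites lay between 0.732 and 0.765. The 5 most like calexcitin-2 had r between 0.767 and 0.799. They were limbic system-associated membrane protein (LOC100651870), a neuronal adhesion protein in mammals, and 4 genes that are uncharacterized or without a name here (LOC100649369, LOC100651029, LOC105667095 and LOC105666000). For these 5 Spearman's rho was lower, between 0.618 and 0.699. All these values are across bees that share sites and libraries, and they are descriptions.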

How the data were processed

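Poly-A RNA of 81 Bombus lucorum workers was sequenced with a stranded kit. Per the labels and methods, the authors trimmed reads with Cutadapt 2.5, aligned them with STAR 2.7.2b to the genome of another species, Bombus terrestris (Bter_1.0), and deposited counts per gene made with featureCounts 1.6.4 over exons of protein-coding genes, reverse-stranded, sharing multi-mapping and overlapping reads as fractions. The estimated counts deposited by the authors were not whole in 28.5% of values and were rounded here before the tests. Reads that differ from the reference genome may be lost for single genes. Names were given for 1777 genes, of which 877 only in the study's tables of regulated genes. Those tables also hold the authors' fold changes and p-values, which were not used. Grazing and temperature class were taken from the study's sample tables by sample title.

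Differences were fitted with edgeR 4.0.16 (quasi-likelihood, TMM, filterByExpr) in R 4.3.3 over all genes, adjusted by Benjamini-Hochberg and called at the authors' thresholds, an adjusted p below 0.05 with a log2 fold change beyond 0.5 in either direction. Belts were fitted over all 81 bees, temperature and lowland grazing over the 30 lowland bees. CPM used TMM library sizes, and log2 CPM a prior count of 2. Intervals are 95%. Site means were compared by exact permutation. Alternatives were DESeq2 1.42.0, limma 3.58.1 with a site block, counts summed per site, covariates (grazing or belt, muscle, gut and length scores), no filter, and leaving out each site or the highest bee. The scripts were tested on simulated data. The 2 most alike bees differed by a chi-square of 215 per degree of freedom, so all were kept as separate libraries.

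The members and gene lists were chosen with earlier results of these data known. Named genes were the members, every mitochondrial calcium gene, of each other calcium list the 2 genes with the highest CPM per kilobase and those called (at most 3 per comparison, by smallest p), and for each member the 5 genes with the highest r. The gut list was trimmed by name of 2 chymotrypsin inhibitors after the matched names were seen, and values with them had been seen before the correction took effect. The haemocyte list matched 0 genes. The temperature classes hold 17 and 13 bees by the sample table, where 15 and 15 had been planned for. The neuron list (5 genes) summed to medians of 27.7 and 26.0 CPM in the high and low class, and the testis and cilia list (16 genes) to 159 and 148 CPM.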

Additional observations from a re-analysis of the deposited data

Results flagged for a closer look

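In 30 groups of bees of 1 site (15 sites with 5 to 9 bees, 2 genes), the highest or lowest bee stood apart in CPM from the rest of its site in 3. Chance gives about 1 in 20 if values are normally distributed, which CPM need not be, so no excess over chance is claimed. The rule was not applied to log2 CPM. All 3 bees that stood apart were high values of calexcitin-2. At the lowland site H2, bee 5 had 155.7 CPM and the next bee 50.2 CPM. At the highland site H5, bee 4 had 303.8 CPM and the next 74.91 CPM. At the mid-elevation site Wmb2, bee 5 had 103.1 CPM and the next 50.33 CPM. The 14 muscle genes of these bees summed to 36100, 16200 and 22000 CPM, which ranked 2nd, 4th and 3rd of the 81 bees. The part of muscle in these single values was not tested.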

How the results depend on the processing

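MICU3 kept its direction between temperature classes under all alternatives run, from -1.22 without T3 to -0.96 without H2, as did calexcitin-2 between highland and mid-elevation, from 0.47 at grazed sites only to 0.98 without Wma6. Both are the comparisons by which the genes were chosen, on the same bees. Some values turned their sign, most of them within 2 SE of 0 and 1, calexcitin-2 by grazing (-0.44 ± 0.16), beyond that. For MICU3, mid-elevation against lowland became 0.18 with grazing as a covariate and 0.12 at grazed sites, and the gut covariate gave 0.0099 for highland against lowland and 0.022 for highland against mid-elevation. For calexcitin-2, the muscle covariate gave 0.012 between temperature classes and -0.15 for lowland grazing, the belt covariate 0.057 for grazing, and a slope on altitude 0.28 for mid-elevation against lowland. Site medians gave 0.118 for MICU3 in highland against mid-elevation and -0.0591 for calexcitin-2 in lowland grazing. The cause was not tested. Leaving out 1 site or the highest bee gave -0.14 to 0.10 for MICU3 in highland against mid-elevation and -0.98 to -0.20 in lowland grazing, and for calexcitin-2 0.39 to 0.71 in highland against lowland and -0.54 to -0.035 between temperature classes. Of the 19 calcium genes, between temperature classes the gut covariate left 0 higher and 1 lower, limma with a site block and counts summed per site left 0 and 0, and DESeq2 called 6 higher. Leaving out 1 site gave 0 to 4 higher and 0 to 6 lower there, 0 to 1 lower in mid-elevation against lowland, 0 to 1 in each direction in highland against lowland, and 0 to 1 lower by grazing. In mid-elevation against lowland 0 were lower with the bee block, the gut or length covariate, grazed sites only, limma or summed counts, and 2 with the grazing covariate. Elsewhere 1 was lower in highland against lowland without a filter and with DESeq2, and in lowland grazing with the muscle covariate and with DESeq2, and 1 was higher in highland against mid-elevation with the grazing covariate and in highland against lowland at ungrazed sites. The genes called between temperature classes numbered 288 higher and 90 lower, but 18 and 15 with the gut covariate, 574 and 267 with DESeq2 without a prior, 1 and 0 with summed counts, and 0 and 0 with limma and a site block. With bee number as a replicate block, no call of MICU3 or calexcitin-2 changed (calexcitin-2 in highland against lowland 0.58, adjusted p = 0.0584 in edgeR; MICU3 between temperature classes -1.07). The numbers only name the bees, since same-numbered bees of different sites had a mean r of 0.00597 over 555 pairs and other bees of different sites -0.0228.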
